A study of Homo sapiens with 4 samples.

Results

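Interferon-stimulated genes are the genes that cells switch on after an interferon signal, and 34 of them were followed among the 57820 genes of a transcriptome table from A549. This is an established cell line of human lung adenocarcinoma, and the series title calls it NRF2-activated. The genes were taken by symbol from a list of widely used members of this programme: RNA and DNA sensors, oligoadenylate synthetases, IFIT proteins, the ISG15 system, antiviral effectors, PARP family proteins and the transcription factors of the pathway. All 34 had a row in the table. In the knockdown, cells received siRNA against CEBPB, a transcription factor of the C/EBP family, in 1 library with CEBPB siRNA-1 and in 1 library with CEBPB siRNA-2. The controls received control siRNA, in 2 libraries. All 4 libraries came from the same line without an added interferon in the labels, with fresh medium at 24 h and harvest after another 24 h, and were sequenced as 76-base single-end reads from strand-specific preparations. No label states that the controls were separate cultures, so p-values reflect the spread of these samples alone, which for the controls may be technical. The spread between the knockdown libraries includes the difference between the siRNAs.

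Type I interferons bind paired receptors whose JAK1 and TYK2 kinases phosphorylate STAT proteins, STAT2 among them. With IRF9 these form a complex that binds the interferon-stimulated response element in promoters, while STAT dimers, typical of interferon gamma, bind the gamma-activated site. Epithelial cells also keep a low, unstimulated level of part of this programme, in which unphosphorylated STATs and IRF1 are known to take part.

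Between 13752 and 14325 genes per library reached 1 FPKM. FPKM (fragments per kilobase, adjusted for how deeply a library was read) is the unit inferred for the table, whose header names none; it is a level per length, so it can be compared between genes. Relative depth, read from the steps of low values, lay between 0.967 and 1.02 of that of control 1. CEBPB was at 12.9 FPKM with siRNA-1 and 11.0 FPKM with siRNA-2, against 78.7 and 80.9 FPKM in the controls, and its limma log2 change of -2.65 ± 0.17 passed the test (adjusted p = 0.0167). The epithelial keratin genes were abundant in every library but differed between the groups. KRT18 was at 568 and 1351 FPKM with siRNA-1 and siRNA-2, against 1740 and 2502 FPKM in the controls, and is called lower in the authors' deposited table (adjusted p = 0.0317). KRT8 was at 1226 and 1467 FPKM, against 1835 and 2517 FPKM in the controls, and KRT7 at 1200.0 and 1162 FPKM, against 671 and 777 FPKM, and neither is called there. EPCAM was low, at 1.03 to 3.52 FPKM. Of 15 listed markers of leukocytes, endothelium, fibroblasts and erythroid cells, 14 were in the table; PTPRC, CD3E, LYZ, CDH5, VWF, HBB and COL1A2 were among those listed at 0 in all libraries. Summed over the list these markers were at 23.5 FPKM with siRNA-1 and 7.66 FPKM with siRNA-2, against 8.88 and 10.99 FPKM in the controls. Most of that sum was CD68, at 16.8 FPKM with siRNA-1 but with a mean normalized count of 0.754 in the authors' deposited table. ITGAM, another leukocyte marker, was at 2.25 FPKM with siRNA-1 and 0.728 FPKM with siRNA-2, against 1.07 and 0.570 FPKM in the controls. The mean normalized count of ITGAM in the authors' table was 43.6, and its groups overlapped. COL1A1, a fibroblast marker, was at 4.22 and 2.23 FPKM, against 0.717 and 0.573 FPKM in the controls, and is called higher in the authors' deposited table (log2 change 1.88, adjusted p = 0.00621). It had the same order of libraries as many of the interferon-stimulated genes, and the part of these markers in the results below was not tested. FPKM averages over a culture, so more expressing cells and more RNA per cell cannot be told apart.

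Most of the measurable interferon-stimulated genes lay somewhat higher after CEBPB knockdown, a few lay lower, and the programme as a whole stayed at a low level. Summed over the 34 genes, the level was 233 FPKM with siRNA-1 and 189 FPKM with siRNA-2, against 184 and 183 FPKM in the controls. The siRNA libraries averaged 211 ± 31.3 FPKM and the controls 183 ± 0.327 FPKM (SD, n = 2 each), with an exact two-sided permutation p of 0.333, the smallest that 2 libraries against 2 can give. Without OAS1 and OAS3, the most abundant members in the controls, the sums were 176 and 119 FPKM, against 108 and 96.1 FPKM in the controls.

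The level required for testing, an average of 1 FPKM across libraries, was reached by 21 of the 34. Limma on log2(FPKM + 1), adjusted over all 14068 genes tested, called 0 of the 21 higher and 0 lower at an adjusted p of 0.05, where it called 0.064% of all genes higher and 0.171% lower. At an unadjusted p under 0.05 the limma counts were 8 higher and 3 lower, or 38.1% and 14.3% of the 21, beside 7.07% and 5.13% of all genes. Both siRNA libraries lay above both controls for 12 of the 21 and below both for 4, beside 23.5% and 21% of all genes. Among the 12, IFIH1 passed the filter only through the siRNA libraries, with both controls under 1 FPKM. With each siRNA as a group of its own, limma called 3 higher (PARP9, PARP14 and IRF2) and 1 lower (OAS1), beside 3.82% and 3.08% of all genes. The median log2 change was 0.60 over the 21, beside 0.00103 over all genes tested. The authors' deposited table called 2 of the 26 members with an adjusted p there higher, PARP9 and PARP14, and 0 lower, beside 2.71% and 1.42% of all genes in that table. It gave 10 higher and 2 lower at an unadjusted p under 0.05, beside 7.48% and 3.99%.

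**Figure D1:**
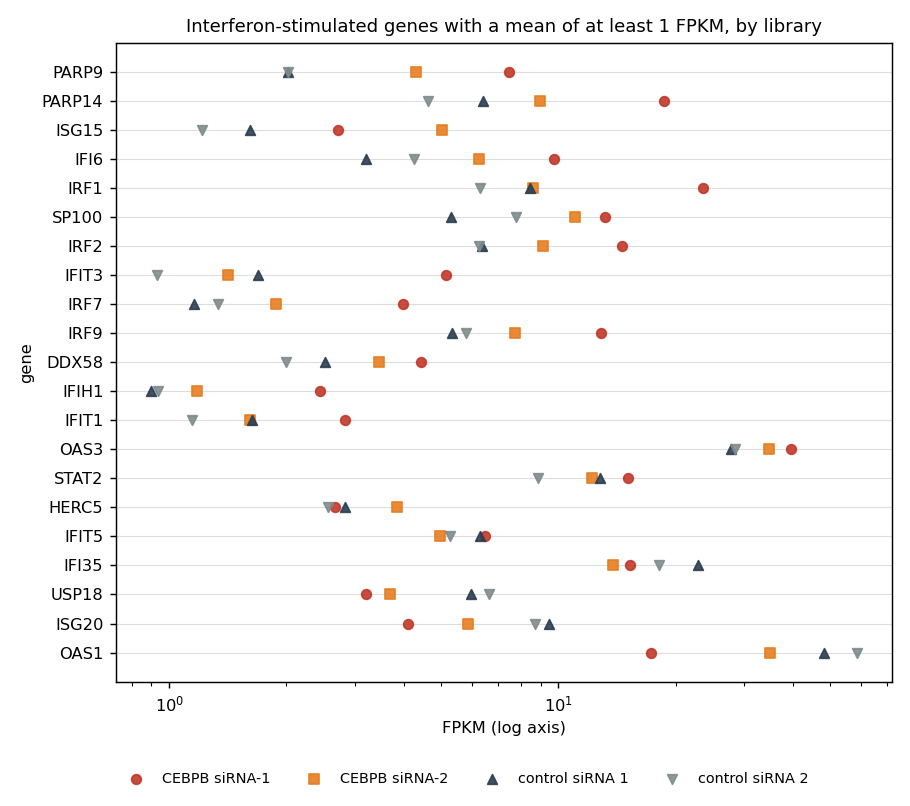
FPKM (log axis) of the 21 interferon-stimulated genes that averaged 1 FPKM or more, 1 point per library, sorted from the highest log2 change at the top to the lowest at the bottom. Circles and squares (CEBPB siRNA-1 and siRNA-2) lie right of both triangles (control siRNA) for 12 genes and left of both for OAS1, ISG20, USP18 and IFI35.

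The clearest members were PARP9 and PARP14, genes close together on chromosome 3 that encode ADP-ribosyltransferase family proteins. PARP9 (ENSG00000138496.12), which acts with the ubiquitin ligase DTX3L, was at 7.48 FPKM with siRNA-1 and 4.31 FPKM with siRNA-2, against 2.02 and 2.01 FPKM in the controls. Both siRNA libraries were thus above the controls, which agreed closely with each other. The log2 change of PARP9 was 1.15 ± 0.28 (SE, 2 libraries a group; limma adjusted p = 0.217), while the authors' deposited table gives 1.60 with an adjusted p of 0.00993. PARP14 (ENSG00000173193.9), a mono-ADP-ribosyltransferase, was at 18.7 and 8.99 FPKM, against 6.40 and 4.63 FPKM in the controls. The groups did not overlap, but the siRNA libraries lay further from each other than siRNA-2 did from the controls. PARP14 had a log2 change of 1.12 ± 0.36 (SE, 2 libraries a group; limma adjusted p = 0.311), and the authors' deposited table gives 1.32 with an adjusted p of 0.0117. SP100, a scaffold of nuclear bodies, was at 13.2 and 11.0 FPKM, against 5.31 and 7.80 FPKM in the controls. Its groups were apart as well, with a log2 change of 0.81 ± 0.24 and a limma adjusted p of 0.276, and its exons overlap HMGB1P3 on the same strand in GENCODE 29.

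The RefSeq promoter windows (GRCh38.p14, 250 bases before to 50 after a transcript start) of the PARP genes are shown because these are the members called in the authors' table. Capitals mark the core of the interferon-stimulated response element, searched as GAAA, any 2 bases and GAAA again, on both strands and here called the GAAA repeat. The windows are chr3:122564251-122564550 on the minus strand for PARP9 and chr3:122680589-122680888 on the plus strand for PARP14.
PARP9: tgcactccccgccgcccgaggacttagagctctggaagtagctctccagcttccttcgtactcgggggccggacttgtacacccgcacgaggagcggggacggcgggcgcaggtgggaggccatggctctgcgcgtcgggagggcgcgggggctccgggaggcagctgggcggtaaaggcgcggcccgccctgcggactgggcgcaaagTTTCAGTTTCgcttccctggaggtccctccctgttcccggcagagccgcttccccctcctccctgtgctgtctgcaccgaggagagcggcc
PARP14: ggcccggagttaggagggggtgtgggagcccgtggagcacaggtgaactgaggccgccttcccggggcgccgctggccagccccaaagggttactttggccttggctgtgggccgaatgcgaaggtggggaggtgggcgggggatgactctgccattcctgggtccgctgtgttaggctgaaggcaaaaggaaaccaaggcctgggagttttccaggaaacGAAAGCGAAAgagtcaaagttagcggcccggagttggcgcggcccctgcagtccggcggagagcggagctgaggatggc

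Each printed window held 1 match, with its first base at position -41 from that PARP9 start and -29 from the PARP14 start. PARP9 has a second window in the table, chr3:122564735-122565034 on the minus strand, which held 0 matches and is not printed. The printed PARP9 window shares 137 bases with that of DTX3L, which is read from the opposite strand, and the match at chr3:122564332-122564341 is the same in both. DTX3L was itself at 12.3 and 6.11 FPKM with siRNA-1 and siRNA-2, against 3.75 and 3.02 FPKM in the controls, and is called higher in the authors' deposited table (log2 change 1.44, adjusted p = 0.00726). The PARP9, DTX3L and PARP14 levels had the same order in the libraries, siRNA-1 first, siRNA-2 next and both controls last. That order was not particular to them, as IFI6, SP100, OAS3, DDX58 and IRF2, among others, also had it.

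The oligoadenylate synthetases, which sense double-stranded RNA and make the messenger that activates RNase L, did not move together. OAS1 (ENSG00000089127.8), on chromosome 12, was at 17.3 FPKM with siRNA-1 and 34.9 FPKM with siRNA-2, against 48.2 and 58.6 FPKM in the controls. It was the most abundant member in the controls and the lowest in log2 change of the 21, at -1.08 ± 0.34 (SE, 2 libraries a group; limma adjusted p = 0.299). The authors' deposited table gives OAS1 -1.01, at an adjusted p of 0.0539, just outside 0.05. OAS3, its neighbour on the same chromosome, was at 39.5 and 34.8 FPKM, against 27.7 and 28.4 FPKM in the controls. Its groups did not overlap either, in the other direction, with a log2 change of 0.39 ± 0.16 (limma adjusted p = 0.434; 0.36 and adjusted p = 0.682 in the authors' deposited table). OAS1 was thus above OAS3 in the controls and level with it or below it in the siRNA libraries. OAS2 and OASL, a relative without the synthetase activity, were at 0.439 FPKM or less in every library.

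The windows of these neighbours are shown because their levels went in opposite directions. They are chr12:112938224-112938523 for OAS3 and chr12:112906712-112907011 for OAS1, both on the plus strand of GRCh38.p14. Capitals mark the GAAA repeat in OAS3 and, in OAS1, TTGCNNAA, the core of the C/EBP consensus, searched on both strands.
OAS3: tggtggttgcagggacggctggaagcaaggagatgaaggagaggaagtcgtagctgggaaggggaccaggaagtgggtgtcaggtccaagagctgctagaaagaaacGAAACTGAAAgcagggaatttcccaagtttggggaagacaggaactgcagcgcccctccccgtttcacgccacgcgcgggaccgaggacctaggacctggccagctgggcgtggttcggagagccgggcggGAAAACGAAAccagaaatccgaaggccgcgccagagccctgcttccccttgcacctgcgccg
OAS1: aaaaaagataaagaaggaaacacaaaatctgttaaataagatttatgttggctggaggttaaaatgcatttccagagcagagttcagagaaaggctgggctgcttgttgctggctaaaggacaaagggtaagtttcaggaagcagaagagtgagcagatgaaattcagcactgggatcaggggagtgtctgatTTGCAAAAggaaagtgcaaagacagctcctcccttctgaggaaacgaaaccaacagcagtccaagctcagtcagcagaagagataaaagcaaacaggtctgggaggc

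OAS3 held 2 matches to the GAAA repeat, at -143 and -12, and OAS1 held none at that spacing. The OAS1 window did hold gaaacgaaa, a pair of GAAA set closer together, which the search does not find. OAS1 was the only matched member with TTGCNNAA in a window, at -57, where 12.7% of all genes in the RefSeq table hold it. The OAS1 window also held 1 match to the gamma-activated site, which is not marked. A match is a run of letters and not a shown site, and its absence says nothing of the factor.

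All 5 transcription factors of the set passed the filter, and 4 of them, IRF9 with an uncertain direction among them, had both siRNA libraries above both controls, beside 23.5% of all genes tested. IRF1, an early interferon-induced activator, was at 23.6 FPKM with siRNA-1 and 8.61 FPKM with siRNA-2, against 8.45 and 6.29 FPKM in the controls. Only the siRNA-1 library stood well clear of the controls, and siRNA-2 exceeded control 1 by a narrow margin. Its log2 change was 0.89 ± 0.45 (limma adjusted p = 0.521), and 1.15 with an adjusted p of 0.142 in the authors' deposited table. IRF2, a competitor of IRF1 for the same sites, was at 14.5 and 9.15 FPKM, against 6.37 and 6.25 FPKM in the controls. Its log2 change was 0.78 ± 0.25, with a limma adjusted p of 0.316. IRF7, which amplifies interferon production, was at 3.99 and 1.88 FPKM, against 1.16 and 1.33 FPKM in the controls. STAT2, a STAT protein of type I signalling, was at 15.1 and 12.2 FPKM, against 12.8 and 8.86 FPKM in the controls, and its groups overlapped.

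IRF9, the DNA-binding subunit of the STAT complex, was at 12.9 FPKM with siRNA-1 and 7.74 FPKM with siRNA-2, against 5.34 and 5.796 FPKM in the controls. The groups were apart, with a log2 change of 0.75 ± 0.27 (limma adjusted p = 0.359), but the authors' deposited table gives 0.11 with an adjusted p of 0.999. Its FPKM values would correspond to about 122 reads, and the mean normalized count in the authors' table is 17.0, a ratio of 0.139 where the quartiles over 11427 genes were 0.693 and 1.08. IRF9 exons overlap AL136295.5 on the same strand in GENCODE 29, so its direction is uncertain.

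Of the nucleic acid sensors, DDX58, which encodes RIG-I, was at 4.43 FPKM with siRNA-1 and 3.46 FPKM with siRNA-2, against 2.51 and 1.99 FPKM in the controls. IFIH1, which encodes MDA5, was at 2.43 and 1.18 FPKM, against 0.899 and 0.934 FPKM in the controls. IFI16, a DNA sensor, was at 0.913 and 1.16 FPKM, against 0.291 and 0.325 FPKM in the controls, and was too low to test. Both siRNA libraries were thus above both controls for DDX58 and IFIH1, beside 23.5% of all genes tested, and also for the untested IFI16. IFIH1 passed the filter only through the siRNA libraries, as its control mean was 0.917 FPKM. The log2 changes were 0.60 ± 0.23 for DDX58 and 0.51 ± 0.30 for IFIH1, with limma adjusted p-values of 0.390 and 0.569. Summed over the sensors the level was 7.77 and 5.799 FPKM, against 3.70 and 3.25 FPKM in the controls.

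IFIT proteins bind viral RNA ends, and their genes lie together on chromosome 10. IFIT3 was at 5.15 FPKM with siRNA-1 and 1.42 FPKM with siRNA-2, against 1.69 and 0.928 FPKM in the controls. IFIT1 was at 2.83 and 1.61 FPKM, against 1.63 and 1.14 FPKM, and IFIT5 at 6.48 and 4.95 FPKM, against 6.30 and 5.28 FPKM in the controls. For IFIT1 and IFIT3 the siRNA-2 library lay between the controls, and for IFIT5 below both, while the siRNA-1 library was the highest of each; all 3 overlapped between the groups. IFIT2, at 1.37 and 0.602 FPKM against 0.478 and 0.340 FPKM, did not overlap but was under the filter, and its exons overlap AL353751.1 on the same strand. Limma adjusted p-values of the tested genes were 0.589 for IFIT3, 0.629 for IFIT1 and 0.983 for IFIT5.

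The ISG15 system attaches a ubiquitin-like protein to others, and its parts differed in direction. ISG15, the modifier itself, was at 2.72 FPKM with siRNA-1 and 5.02 FPKM with siRNA-2, against 1.61 and 1.21 FPKM in the controls. It was one of only 2 tested members with siRNA-2 as the highest library, the other being HERC5. Its log2 change was 0.98 ± 0.31 (limma adjusted p = 0.301; 1.42 and adjusted p = 0.567 in the authors' deposited table, on a mean normalized count of 17.7). HERC5, the ligase that attaches ISG15, was at 2.66 and 3.84 FPKM, against 2.83 and 2.56 FPKM, and overlapped. USP18, which removes ISG15 and also restrains interferon receptor signalling, was at 3.20 and 3.69 FPKM, against 5.95 and 6.61 FPKM in the controls. USP18 lay below both controls with both siRNAs, with a log2 change of -0.71 ± 0.20 and a limma adjusted p of 0.265. USP18 has a near-identical copy, USP41, so its level is uncertain.

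Among the antiviral effectors only ISG20, an RNA exonuclease, could be tested. ISG20 was at 4.10 FPKM with siRNA-1 and 5.85 FPKM with siRNA-2, against 9.45 and 8.72 FPKM in the controls. Both siRNA libraries were below both controls, with a log2 change of -0.77 ± 0.22 (limma adjusted p = 0.276; -0.92 and adjusted p = 0.112 in the authors' deposited table). Its promoter window, chr15:88638766-88639065 on the plus strand of GRCh38.p14, is shown because it carries the GAAA repeat, in capitals, at -69, as those of PARP9 and PARP14 do near their starts, although its level went the other way.
ISG20: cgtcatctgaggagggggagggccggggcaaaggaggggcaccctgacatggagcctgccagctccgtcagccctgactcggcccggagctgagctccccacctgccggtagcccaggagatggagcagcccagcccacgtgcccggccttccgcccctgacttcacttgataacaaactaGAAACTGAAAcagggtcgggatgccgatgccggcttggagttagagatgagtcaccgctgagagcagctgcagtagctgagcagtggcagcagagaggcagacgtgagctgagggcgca

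IFI6, a small membrane protein that counters cell death, was at 9.76 FPKM with siRNA-1 and 6.26 FPKM with siRNA-2, against 3.21 and 4.26 FPKM in the controls. Its log2 change was 0.91 ± 0.27, with a limma adjusted p of 0.278. IFI35, a cytoplasmic leucine zipper protein, was at 15.3 and 13.8 FPKM, against 22.8 and 18.2 FPKM in the controls. It lay below both controls with a log2 change of -0.46 ± 0.19 and a limma adjusted p of 0.430.

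**Figure D2:**
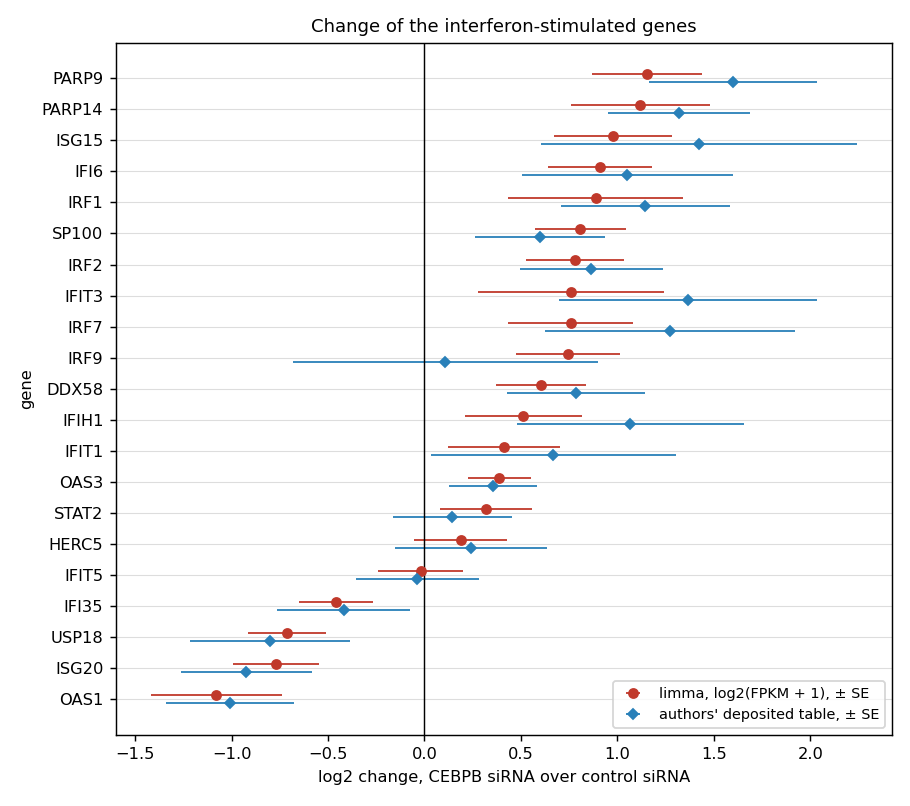
Log2 change of CEBPB siRNA over control siRNA with its standard error for the 21 tested genes, from limma on log2(FPKM + 1) (circles) and from the authors' deposited table (diamonds). PARP9 and PARP14 are at the top, at 1.15 and 1.12 in limma, and OAS1 is at the bottom, at -1.08; the estimates for IRF9 stand apart, at 0.75 and 0.11.

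The remaining 13 members stayed under a mean of 1 FPKM, among them genes that are classical markers of a full interferon response. MX1, a dynamin-like antiviral GTPase, was at 2.36 FPKM with siRNA-1 and 0.439 FPKM with siRNA-2; it was listed at 0 in control 1 and at 0.242 FPKM in control 2. In the authors' deposited table MX1 stands at 2.52 on the log2 scale (adjusted p = 0.0803). IFI27 was at 1.33 and 0.1297 FPKM; it was listed at 0 in control 1 and at 0.378 FPKM in control 2. IFI44 was listed at 0 with siRNA-1 and in both controls and was at 1.35 FPKM with siRNA-2. Of the 13, 11 were above 0 with siRNA-1 and 6 with siRNA-2, against 4 in control 1 and 5 in control 2. The matching shares over all genes this low were not counted, so these counts may not be particular to the members. XAF1 (a partner of the apoptosis inhibitor XIAP), CMPK2 and RSAD2 (viperin), both of chromosome 2, BST2 (tetherin) and IFI44L were above 0 in the siRNA-1 library alone, at 0.0865 to 0.392 FPKM. Their mean normalized counts in the authors' table were 0.988 to 3.49, so these levels rest on a few reads. MX2 was listed at 0 in all libraries, with a mean normalized count of 1.27 in the authors' table.

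**Figure D3:**
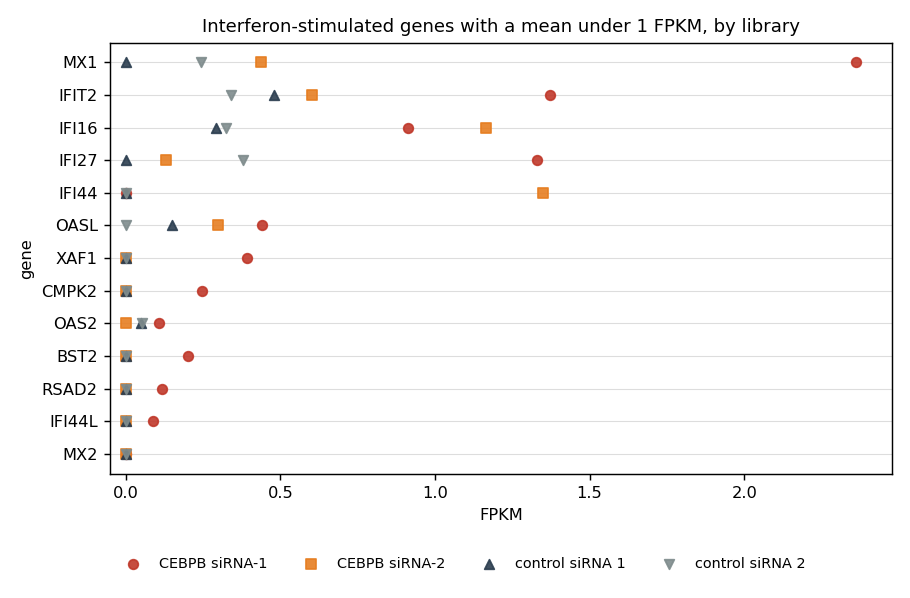
FPKM of the 13 interferon-stimulated genes that averaged under 1 FPKM, 1 point per library. The siRNA-1 circle is the rightmost point for MX1 (2.36 FPKM), IFIT2, IFI27 and 7 others, the siRNA-2 square for IFI16 and IFI44, and most control triangles lie at or near 0.

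Promoter windows were found for 27 of the 34 members, in 39 windows. The GAAA repeat was in at least 1 window of 17 of the 27 (63%), beside 4.38% of all 27305 genes in the RefSeq table. TTCNNNGAA, the gamma-activated site, was in those of 8 members (29.6%), beside 9.38%. TTGCNNAA was in that of 1 member (3.7%), beside 12.7%. By direction, the GAAA repeat was present for 6 of the 10 matched genes with both siRNA libraries above both controls, for 1 of 3 below and for 4 of 5 that overlapped. The motif was thus not limited to the genes that lay higher, and these are descriptions with no test. Pairs of GAAA at other spacings, as in OAS1, were not searched and are not in these counts.

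The siRNA libraries did not contribute equally. The siRNA-1 library was the highest of the 4 for 15 of the 21 genes (71.4%), beside 30.1% of all genes tested, and the siRNA-2 library for 2 of the 21 (9.52%), beside 27% of all genes. Against the same control mean, the siRNA-1 library had a median log2 difference of 0.74 and the siRNA-2 library one of 0.30, beside -0.034 and 0.040 over all genes. The direct contrast of siRNA-1 minus siRNA-2 sets 1 library against 1, and its spread comes from the controls alone, with 1 residual degree of freedom, so its p-values assume that the knockdown libraries vary as the controls do, whose spread may be technical. In it, 0 of the 21 were called in either direction by limma, where 0.114% of all genes were higher and 0.327% lower. At an unadjusted p under 0.05, limma gave 7 higher with siRNA-1 (33.3%) and 1 lower, beside 9.02% and 13.4% of all genes. The smallest adjusted p-values were those of IRF1 (difference 1.35 ± 0.26, adjusted p = 0.0818) and OAS1 (-0.97 ± 0.20, adjusted p = 0.0895). With siRNA-2 left out, the spread again came from the controls alone, and limma called 8 of the 21 higher and 2 lower, beside 6.18% and 6.35% of all genes, and the 8 were PARP9, PARP14, IRF1, IRF2, IRF7, IRF9, IFI6 and IFIT3. Without siRNA-1, under the same limit, the median log2 change of the 21 was 0.30, beside 0.74 without siRNA-2.

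**Figure D4:**
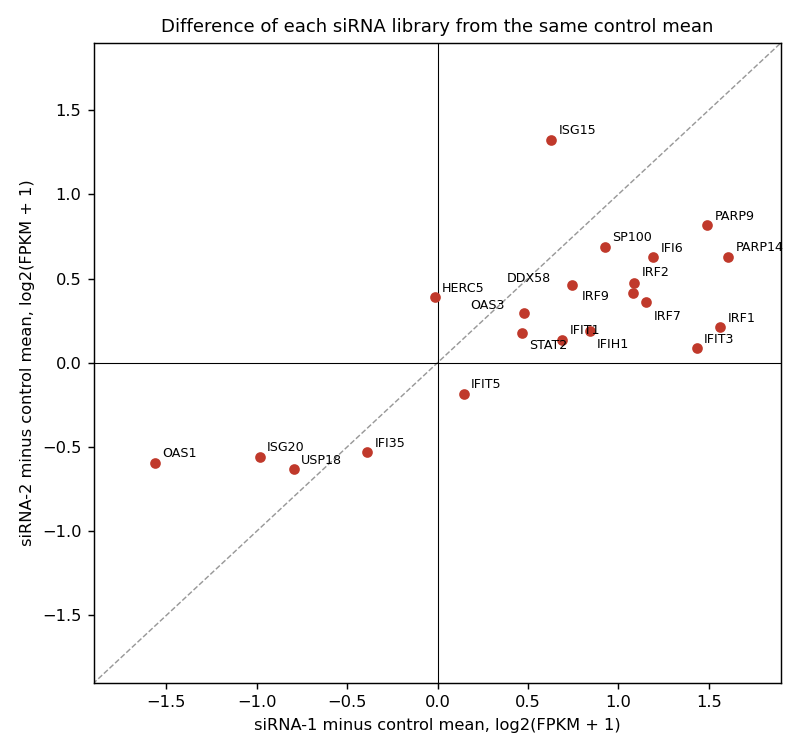
Difference on the log2(FPKM + 1) scale of the siRNA-1 library (horizontal axis) and the siRNA-2 library (vertical axis) from the mean of the same 2 controls, 1 point per tested gene, with a dashed line where both are equal. Most genes to the right of 0 lie under the line, with PARP14 at 1.61 and 0.63 and IRF1 at 1.56 and 0.21, while ISG15 lies above it at 0.63 and 1.32.

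Other genes of the interferon pathway were read from a list of 70 by role, of which 48 were tested. Limma called 0 in either direction, and 8 higher and 3 lower at an unadjusted p under 0.05, beside 7.07% and 5.13% of all genes. Both siRNA libraries lay above both controls for 21 and below both for 6, beside 23.5% and 21% of all genes, and the median log2 change was 0.25. Some of the 21 passed the filter only through the siRNA libraries. The authors' deposited table called 7 of 54 higher (13%) and 1 lower, beside 2.71% and 1.42% of all genes there. Of 10 interferon ligand genes, 7 were listed at 0 in all libraries, among them IFNB1, IFNG and IFNL1. IFNE, a type I interferon of epithelia, was at 0.692 and 0.847 FPKM with siRNA-1 and siRNA-2, against 1.54 and 0.586 FPKM in the controls, and IFNA1 and IFNW1 were above 0 with siRNA-2 alone, at 0.0599 and 0.0694 FPKM.

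Of 6 receptor genes listed, 5 were tested, and IFNLR1, of the interferon lambda receptor, was at 0.230 to 0.440 FPKM and was not. IFNGR1, a chain of the interferon gamma receptor, was at 13.3 and 16.3 FPKM, against 24.5 and 23.4 FPKM in the controls, with both siRNA libraries lower (log2 change -0.66 ± 0.18, limma adjusted p = 0.254). IFNGR2, its partner, was at 43.7 and 21.1 FPKM, against 21.0 and 19.7 FPKM, and the type I receptor chain IFNAR2 at 30.4 and 13.5 FPKM, against 13.9 and 12.3 FPKM. In both only the siRNA-1 library stood clear of the controls, and IFNAR2 exons overlap AP000295.1 on the same strand.

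JAK1 and JAK2, the kinases called in the authors' deposited table, moved in opposite directions. JAK1, which serves all interferon receptors, was at 151 FPKM with siRNA-1 and 77.2 FPKM with siRNA-2, against 56.3 and 43.2 FPKM in the controls. It is called higher in the authors' deposited table, by 1.19 on the log2 scale (adjusted p = 0.0145). JAK2, which serves the interferon gamma receptor, was at 1.69 and 2.27 FPKM, against 4.29 and 4.48 FPKM, and is called lower there (-1.10, adjusted p = 0.0283). STAT3 was at 55.4 and 56.1 FPKM, against 37.9 and 31.8 FPKM, and is called higher (0.75, adjusted p = 0.0249). The siRNA libraries were alike for STAT3, unlike for JAK1.

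Of the negative regulators, PTPN11 was at 53.4 and 67.5 FPKM, against 59.2 and 55.4 FPKM in the controls, and PTPN2 at 16.9 and 22.6 FPKM, against 24.7 and 26.5 FPKM. TRIM25, listed with them although it activates RIG-I, was at 28.05 and 34.04 FPKM, against 26.3 and 24.1 FPKM. The induction factors IRF3 (53.8 and 57.1 FPKM, against 49.9 and 53.0 FPKM), MAVS (22.2 and 24.3 FPKM, against 23.8 and 18.3 FPKM) and TRAF3 (20.7 and 24.0 FPKM, against 21.8 and 17.7 FPKM) were also expressed in every library. None of these passed in either table.

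Further interferon-induced genes included the other 5 called higher in the authors' deposited table. UBE2L6, the conjugating enzyme of ISG15, was at 49.0 FPKM with siRNA-1 and 16.5 FPKM with siRNA-2, against 10.0 and 6.76 FPKM in the controls (authors' log2 change 1.96, adjusted p = 0.00201). PARP12, another ADP-ribosyltransferase, was at 19.8 and 8.94 FPKM, against 3.74 and 3.65 FPKM (1.43, adjusted p = 0.0150 in the authors' table). DDX60L, a helicase-like gene, was at 18.7 and 5.47 FPKM, against 3.66 and 2.13 FPKM (2.09, adjusted p = 0.000511 in the authors' table). LGALS3BP, a secreted galectin ligand, was at 96.1 and 84.2 FPKM, against 58.2 and 48.6 FPKM (0.79, adjusted p = 0.0338 in the authors' table), and the fifth was DTX3L. All 5 had both siRNA libraries above both controls, beside 23.5% of all genes tested. They were picked by a call made on these same libraries, so this adds nothing to that call. The abundant LY6E (92.8 and 121 FPKM, against 107 and 117 FPKM) and ADAR (57.1 and 64.2 FPKM, against 66.8 and 59.2 FPKM) overlapped.

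**Figure D5:**
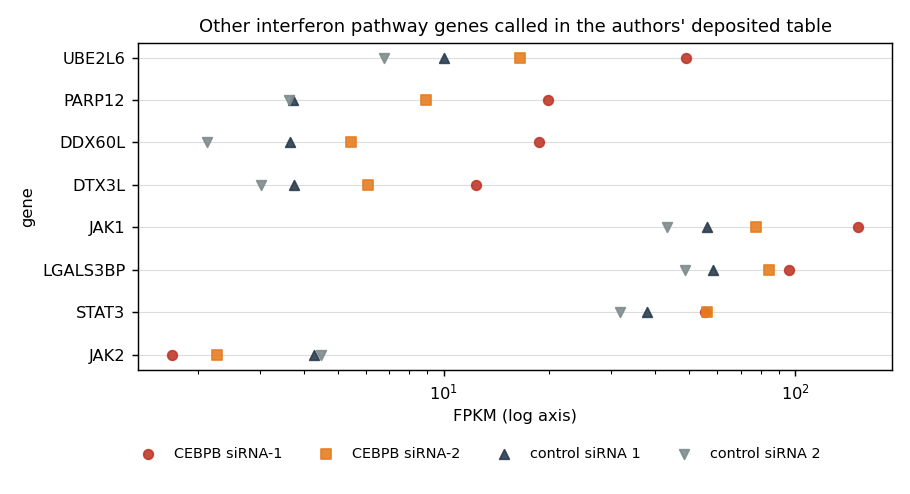
FPKM (log axis) by library of the 8 other interferon pathway genes called in the authors' deposited table. For 7 genes both CEBPB siRNA points lie right of both control points, and for JAK2, at 1.69 and 2.27 FPKM against 4.29 and 4.48 FPKM in the controls, they lie left of both.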

How the data were processed

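The deposited table holds 1 value per gene and library and the authors' own comparison. The submitters' processing notes name, without role or order, DESeq2 1.26.0, HTSeq 0.13.5, StringTie 2.1.4, STAR 2.7.0d and the build hg19. The authors deposited per-library values already scaled to transcript length and depth; their unit, unnamed per the file headers, was taken as FPKM from StringTie's column names and unequal column sums. Per the file headers, the other columns are the authors' DESeq2 results: the signal column is their mean normalized count, the log2 columns their fold change and its standard error, the score their Wald statistic, and the p-value columns their p and adjusted p. The authors' mean counts sum to 8341080, which is the only depth the table gives; depth per library is unknown beyond the relative depth read from low values.

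In R 4.3.3, limma 3.58.1 with a trend on mean level was run on log2(FPKM + 1), a scale that understates changes of low genes, over the 14068 genes averaging 1 FPKM or more, without a block, with Benjamini-Hochberg adjustment. Residual degrees of freedom were 2, and the prior added 3.61. The siRNAs were contrasted in a fit with 3 groups, which has 1 residual degree of freedom. Promoter windows came from RefSeq (GRCh38.p14), overlaps and transcript lengths from GENCODE 29 by gene ID. Limma was tested on simulated data. Every member is reported; pathway genes were named if called in either table or among the 3 most abundant of their role, except that 1 pathway gene and 1 marker are not reported here. Members, lists and rules were chosen with earlier results of these data known. Alternatives were other pseudocounts (0.1 and 0.5), filters, scalings, 3 groups, a replicate block and leaving out each library.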

Additional observations from a re-analysis of the deposited data

How the results depend on the processing

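Over all genes, limma's 9 higher and 24 lower calls became 0 and 0 with no filter, 538 and 433 with 3 groups, and 0 to 870 and 0 to 894 when 1 library was left out; the cause was not tested. For the 21 interferon-stimulated genes, the calls became 3 higher and 1 lower with 3 groups and 0 to 8 higher and 0 to 2 lower without 1 library. Their median log2 change was 0.82 with a pseudocount of 0.1 and 0.30 to 0.74 without 1 library. For the pathway list the calls became 6 higher and 1 lower with 3 groups and 0 to 10 and 0 to 3 without 1 library. Without 1 library, IFIT5 ranged between -0.19 and 0.15, turning positive without siRNA-2 (0.15) and without control 1 (0.088), and HERC5 between -0.014 (without siRNA-2) and 0.39. CEBPB itself lost its limma call with no filter or without either control. The fits with 3 groups or without a siRNA library take their spread from the controls alone, which may be technical, so their calls carry that limit.

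Between the siRNAs, the 16 higher and 46 lower calls over all genes became 0 and 1 with a pseudocount of 0.1, 909 and 1006 with no filter, 480 and 813 at a mean of at least 5 FPKM, 88 and 83 with median-of-ratios scaling and 83 and 82 with upper-quartile scaling. Interferon-stimulated genes called there were 4 higher (BST2, XAF1, RSAD2 and CMPK2) and 1 lower (IFI44) with no filter, all listed at 0 in both controls, so that their spread is 0. At 5 FPKM they were 2 higher (PARP14 and IRF1) and 1 lower (OAS1). No siRNA contrast could be tested without a control, since no residual degree of freedom remained.

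With the replicate number as a block, the counts over all genes were 11 higher and 14 lower and those of the interferon-stimulated and pathway genes stayed at 0. The numbers are not shown to pair the libraries: same-numbered libraries deviated from their group means with a correlation of 0.075 across genes.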
